A study of Mus musculus with 9 samples.

Results

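Kinesins are motor proteins that hydrolyse ATP to walk along microtubules or to take microtubule ends apart. One set builds and drives the mitotic spindle, moves chromosomes and completes cytokinesis, and is made mainly by dividing cells. Another set carries vesicles, mitochondria, receptors and RNA granules along axons and dendrites, and several of its members are made mainly by neurons. In the developing cortex both sets work side by side, since dividing precursors lie next to the neurons they produce. The kinesin genes described here are the 40 genes, of 22180 genes on the array with a probe set of a single symbol, whose symbol has the form of a Kif or Kifc family member. Where a gene had several probe sets, as Kif5b, Kif7 and Kif27 did, the one with the highest mean was used. By the known functions of their proteins 12 were grouped as mitotic, 17 as transport and 11 as other kinesins, the last a mixed group of ciliary, signalling, depolymerising and germline members.

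Levels were measured on 9 Affymetrix mouse gene arrays, with 3 for each of 3 cultures of wild-type CD1 mouse cortex. Neurons came from embryonic day 16 and were kept for 5 days in total, although one label gives 4 days. Precursors came from embryonic day 13 and were kept for 1 day. In the co-culture, such precursors were added to such neurons for the last day, so its RNA comes from both. No group carried a mutation or received an agent. Neuron and precursor cultures thus differed in cell type, in the age of the embryos and in the days they were kept, and these cannot be told apart. In RNA from a whole culture, fewer cells of a type and less RNA per cell cannot be told apart either. All values are log2 levels as the authors deposited them, so that a difference of 1 is a 2-fold difference.

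The labelled cell types were checked against marker genes. All 5 measured markers of cycling cells were lower in neurons (summed linear level 1843 to 2122 against 7443 to 7825 in precursors and 6892 to 7160 in the co-culture), as were all 6 radial precursor markers. Of 8 neuronal markers 7 were higher in neurons (27820 to 28670 against 16510 to 16900), and only Tubb3, a tubulin of young neurons, did not pass (-0.01, adjusted p = 0.880, limma). Neuronal markers were thus measured in the precursor cultures too. Some markers of other cells differed too, beside 35.2% of all tested genes lower in neurons and 28.0% higher. All 3 tested endothelial markers were lower in neurons (384.2 to 405.4 against 599.9 to 647 for all 4 listed). Of 5 tested microglial markers 2 were lower and 1 higher (857.8 to 964.5 against 1014 to 1164 for all 7 listed). The 3 markers of intermediate progenitors were lower, as were 3 of 5 GABAergic markers (2 higher), 1 of 2 tested astrocyte markers (1 higher), 1 of 4 tested oligodendrocyte markers and 1 of 3 mesenchymal markers. Pecam1 and Flt1 (endothelial), Tyrobp (microglial) and Eomes (intermediate progenitors) were below the array median in all 3 neuron arrays. They were lower in neurons, and were tested only because they lay above it in other cultures. Aif1, the microglial marker higher in neurons, was above it in the neuron arrays only. The part of such other cells in the kinesin values was not tested. Of 4 markers of ciliated ependymal cells, Foxj1, Rsph1 and Dnah11 lay below the array medians of 6.75 to 6.80 in all 9 arrays. The other, Ccdc153, lay above them in all 9, at 7.61 to 8.35, and did not pass between neurons and precursors (0.11, adjusted p = 0.595, limma).

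The first question was how the kinesin genes differ between neurons and precursors. In neurons 17 kinesin genes were lower and 13 higher (limma, Benjamini-Hochberg adjusted p under 0.05). Genes had to lie above the array median in at least 3 arrays to be tested, which 34 kinesin genes did, and of all 13012 genes tested 63.1% passed, 35.2% lower and 28.0% higher. The 3 neuron arrays did not overlap the 3 precursor arrays in 30 of the 34 kinesin genes, and in 66.4% of all tested genes. The count of changed kinesins has to be read against these high shares. All 11 tested mitotic kinesins were lower, by 2.52-fold to 7.48-fold. Among the 17 transport kinesins 11 were higher and 4 lower, and 1 of these 15 differences, that of Kifc2, reached 2-fold. Kif4, Kif14, Kif15, Kif20b and Kif22 were below the array median in all 3 neuron arrays and passed the filter through the other cultures. Without the filter, 11 of all 12 mitotic kinesins were again lower, with a median log2 difference of -1.76 over the 12. The median was 0.31 over the 17 transport kinesins and 0.01 over all 22180 genes.

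**Figure D1:**
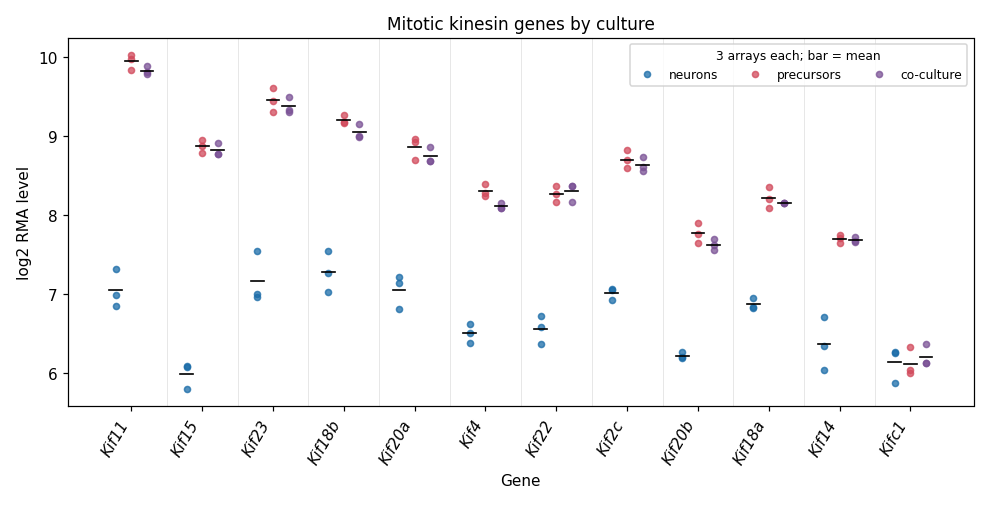
Log2 RMA levels of the 12 mitotic kinesin genes on the 9 arrays. Each point is an array, coloured by culture (3 arrays each), and the black bars are group means. Genes are ordered by the difference between neurons and precursors, from Kif11 (-2.90) to Kifc1, and levels of different genes should not be compared with each other. In 11 genes the neuron arrays lie below all others, and in Kifc1 the cultures overlap.

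Kif11 and Kif15 had the largest differences of the family. Kif11, the tetrameric motor that pushes spindle poles apart, was at 6.99, 7.31 and 6.84 in neurons, 9.84, 9.98 and 10.04 in precursors, and 9.79, 9.90 and 9.82 in the co-culture. Its neuron arrays lay far below the rest, while precursor and co-culture arrays overlapped. The difference between neurons and precursors was -2.90 (SE 0.106, 7.48-fold, adjusted p = 1.43e-08, limma). Kif15, which helps Kif11 to keep the spindle bipolar, was at 5.79, 6.07 and 6.08 in neurons, 8.88, 8.79 and 8.96 in precursors, and 8.92, 8.77 and 8.78 in the co-culture. It differed by -2.90 as well (SE 0.0844, 7.44-fold, adjusted p = 3.83e-09). In neurons Kif15 was dim, and since no detection calls were used, a fold from such a level can be understated.

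The kinesins of the central spindle and of cytokinesis were next. Kif23 forms the centralspindlin complex with Racgap1. It was at 6.965, 7.544 and 6.998 in neurons, 9.61, 9.31 and 9.45 in precursors, and 9.50, 9.34 and 9.31 in the co-culture, a difference of -2.29 between neurons and precursors (SE 0.146, 4.88-fold, adjusted p = 5.32e-07, limma). Among its neuron arrays replicate 2 stood above the other two. Kif20a brings the chromosomal passenger complex to the central spindle. It was at 6.80, 7.21 and 7.14 in neurons, 8.97, 8.70 and 8.92 in precursors, and 8.86, 8.69 and 8.69 in the co-culture (-1.81, SE 0.111, 3.51-fold). Kif4, a chromosome-bound motor that also organises the central spindle with Prc1, was at 6.38, 6.51 and 6.62 in neurons, 8.28, 8.24 and 8.39 in precursors, and 8.16, 8.10 and 8.10 in the co-culture (-1.80, SE 0.0674, 3.49-fold). For Kif4 the co-culture arrays lay just below all precursor arrays. Kif20b, a cytokinesis motor, differed by -1.55 (SE 0.0667, 2.94-fold) and Kif14, which works with citron kinase in cytokinesis, by -1.33 (SE 0.134, 2.52-fold). Kif14 had the widest spread of the mitotic kinesins in neurons, at 6.34, 6.04 and 6.71 against 7.71, 7.75 and 7.64 in precursors.

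The remaining mitotic kinesins act on chromosomes and microtubule ends. Kif18b, which controls the length of astral microtubules, was at 7.26, 7.54 and 7.02 in neurons and at 9.27, 9.18 and 9.16 in precursors (-1.93, SE 0.113, 3.81-fold). Kif18a, which damps chromosome movements at the metaphase plate, was at 6.82, 6.95 and 6.83 in neurons and at 8.35, 8.09 and 8.20 in precursors (-1.35, SE 0.0672, 2.54-fold). Kif22, a motor on chromosome arms, differed by -1.71 (SE 0.0969, 3.27-fold). Kif2c, the depolymerase that corrects faulty kinetochore attachments, differed by -1.69 (SE 0.073, 3.23-fold). Within every one of these 4 genes the neuron and precursor arrays were well apart.

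Kifc1, the minus-end-directed motor that clusters spindle poles, was the only mitotic kinesin that failed the filter. Its probe set read 6.26, 5.88 and 6.25 in neurons, 6.03, 5.99 and 6.32 in precursors, and 6.36, 6.12 and 6.12 in the co-culture, all below the array medians, so it was not tested. Kifc5b, a near copy of Kifc1 outside the naming rule, has a probe set of its own that read 6.952, 6.696 and 7.099 in neurons and 7.501, 7.623 and 7.359 in precursors. Its arrays did not overlap, and it was lower in neurons by 0.58 (log2 difference -0.58, SE 0.106, adjusted p = 8.48e-04, limma). How the 2 probe sets divide signal from these copies is uncertain, so the level of Kifc1 cannot be read from either.

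Neuron replicate 2 was the highest of the neuron arrays for Kif11, Kif18a, Kif18b, Kif20a and Kif23, 5 of 11 tested mitotic kinesins, and the lowest for 3. The cycling cell markers had a summed level of 2122 in that array, against 1843 and 1856 in the others, and the partners of mitotic kinesins 3144 against 2711 and 2609. Leaving it out necessarily widened the differences of the 5 genes, with Kif11 at -3.03 and Kif23 at -2.47. It likewise narrowed those of the 3 in which it was lowest, Kif14 (-1.17), Kif22 (-1.61) and Kif2c (-1.65). All 11 tested mitotic kinesins were still called lower in neurons without it.

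The proteins that work with mitotic kinesins were measured too, from a list of 16 kinases, passenger proteins, spindle factors and the related motor Cenpe. All 16 were lower in neurons (median -1.90, range -2.95 to -0.55), where 35.2% of all tested genes were lower and the median over all of them was -0.02. The largest differences were those of the checkpoint kinase Bub1 (-2.95, SE 0.0905, 7.72-fold), the cytokinesis factor Ect2 (-2.56), and the mitotic kinases Aurkb (-2.52) and Plk1 (-2.33). Some of the 16, Bub1 among them, were below the array median in all 3 neuron arrays and passed the filter through the other cultures.

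The annotated promoters of the kinesin genes were read beside these levels, because a short element, the CHR, is known to bind complexes that hold cell cycle genes off in resting cells, often next to boxes bound by the factor NF-Y. RefSeq promoter windows (assembly GRCm38.p6, 250 bases before to 50 after an annotated start) were present for 32 of the 40 genes. Motifs were the letters TTTGAA for the CHR and CCAAT for the NF-Y box, on both strands, and the 2 motifs do not overlap in the windows shown. Starts are those of the annotation and were not measured here. Shown first are the 110 bases before the start of Kif11, Kif15 and Kif22, which hold a CHR match at nearly the same distance, with motif matches in capitals (TTCAAA and ATTGG are matches on the opposite strand):
Kif11, chr19:37376272-37376381, plus strand: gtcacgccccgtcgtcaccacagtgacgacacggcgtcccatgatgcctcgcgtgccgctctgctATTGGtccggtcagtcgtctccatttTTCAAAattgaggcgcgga
Kif15, chr9:122950971-122951080, plus strand: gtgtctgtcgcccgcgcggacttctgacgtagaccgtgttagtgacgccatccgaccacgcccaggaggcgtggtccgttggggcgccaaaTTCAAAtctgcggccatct
Kif22, chr7:127042421-127042530, minus strand: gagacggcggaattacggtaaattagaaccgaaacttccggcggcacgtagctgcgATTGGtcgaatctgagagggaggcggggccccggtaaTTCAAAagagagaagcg

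Counting from the start, the nearest CHR match lay at bases -19 to -14 in Kif11 and in Kif15 and at -17 to -12 in Kif22. Kif15 and Kif22 each held another match farther upstream, at -234 to -229 and at -215 to -210. The nearest NF-Y box lay at -45 to -41 in Kif11 and at -54 to -50 in Kif22, and Kif15 had none. Of the 11 mitotic kinesins with a window 10 held a CHR match, or 90.9%. The share was 1 of 11 among transport kinesins (9.09%), 2 of 10 among other kinesins (20%) and 20.2% of all 27025 genes with a window. Within 30 bases of the start, a span chosen after the positions were seen, the match was present in 8 of 11 mitotic kinesins. It was present there in 0 of 11 transport and 1 of 10 other kinesins, and in 3.39% of all genes. The NF-Y box was found in 7 of 11 mitotic, 3 of 11 transport and 5 of 10 other kinesins, and in 41.1% of all genes. The GC box, letters GGGCGG, was found in 6 of 11 mitotic, 9 of 11 transport and 6 of 10 other kinesins, and in 38.2% of all genes.

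**Figure D2:**
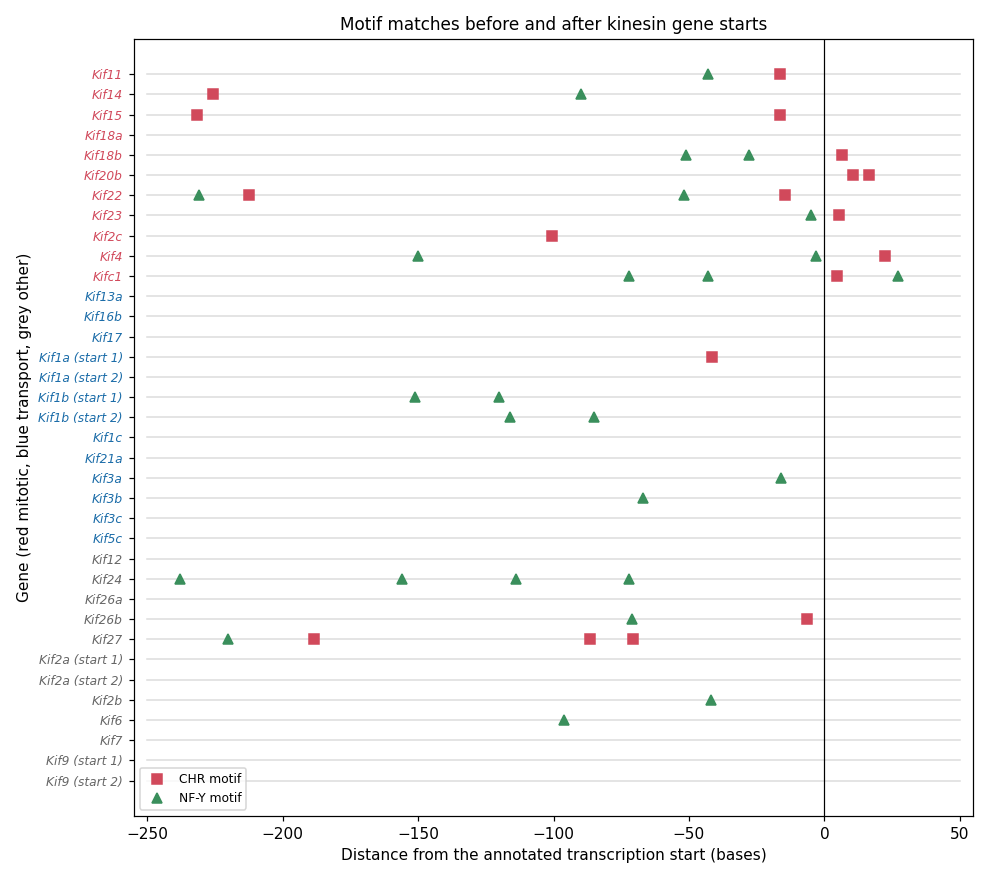
Positions of CHR matches (red squares) and NF-Y box matches (green triangles) from 250 bases before to 50 bases after the annotated start, one line for each start of the 32 kinesin genes with a RefSeq window. Names are red for mitotic, blue for transport and grey for other kinesins, and genes with 2 annotated starts have 2 lines. CHR matches gather near the start in mitotic kinesins, with 8 of 11 within 30 bases. The downstream start of Kif1a holds the only match of the transport group.

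The match and the levels did not go together in every gene, and whether the CHR acts on these genes in these cultures was not tested. Kif18a had no CHR match in its window and was 2.54-fold lower in neurons. Kif26b and the downstream of the 2 annotated starts of Kif1a had one, and both genes were higher in neurons, as described below. The window of the upstream Kif1a start held no CHR match. Which start of Kif1a these cultures use, and whether the downstream window acts as a promoter, was not tested. Their windows are shown for comparison:
Kif18a, chr2:109280628-109280737, plus strand: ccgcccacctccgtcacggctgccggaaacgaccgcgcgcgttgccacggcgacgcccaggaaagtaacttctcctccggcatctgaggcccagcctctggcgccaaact
Kif26b, chr1:178529015-178529124, plus strand: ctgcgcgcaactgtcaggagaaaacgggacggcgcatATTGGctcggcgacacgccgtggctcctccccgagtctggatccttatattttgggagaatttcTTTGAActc
Kif1a, chr1:93082481-93082590, minus strand: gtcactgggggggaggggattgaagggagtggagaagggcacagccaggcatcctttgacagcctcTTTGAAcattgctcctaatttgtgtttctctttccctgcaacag

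Transport kinesins were described next, in their subfamilies. The largest difference was that of Kifc2, a minus-end-directed motor made mainly in neurons, which was at 8.55, 8.73 and 8.61 in neurons, 7.24, 7.11 and 7.17 in precursors, and 7.495, 7.608 and 7.672 in the co-culture. The 3 cultures did not overlap, with the co-culture between the others, and neurons were higher than precursors by 1.45 (SE 0.065, 2.74-fold, adjusted p = 4.82e-08, limma). Its relative Kifc3, a minus-end-directed motor of epithelial and other cells, differed by 0.34 (SE 0.0939, 1.27-fold).

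**Figure D3:**
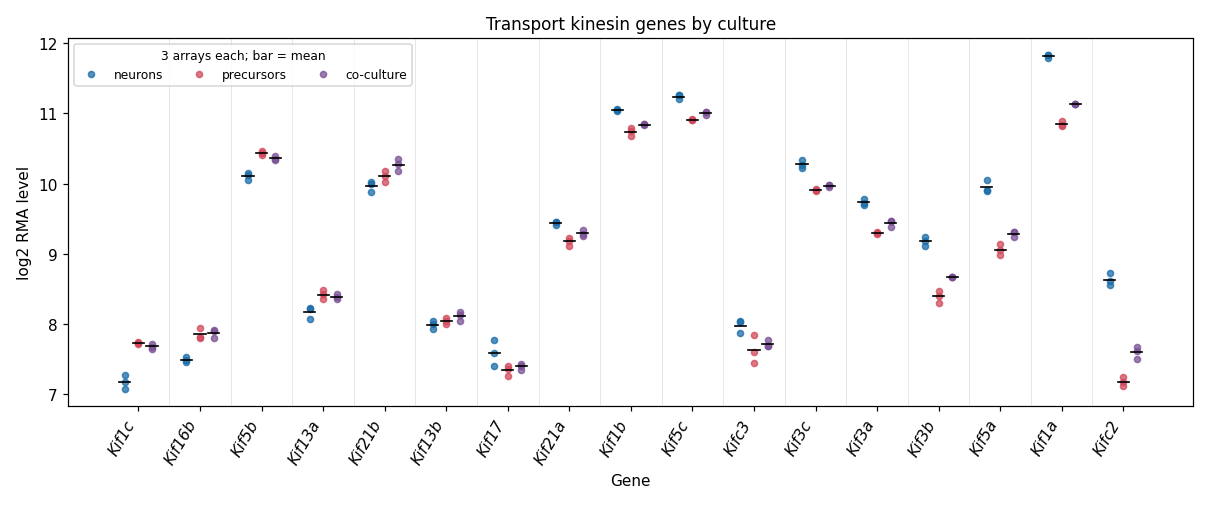
Log2 RMA levels of the 17 transport kinesin genes on the 9 arrays, drawn as for the mitotic kinesins: points are arrays, colours are cultures (3 arrays each) and black bars are means. Genes run from the largest fall in neurons, Kif1c (-0.56), to the largest rise, Kifc2 (1.45), and in most genes the co-culture lies near the precursors.

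The kinesin-3 family carries vesicles, and its members moved in both directions. Kif1a, which carries synaptic vesicle precursors and dense core vesicles, was at 11.83, 11.79 and 11.84 in neurons, 10.90, 10.84 and 10.82 in precursors, and 11.14 in each co-culture array. It was higher in neurons by 0.97 (SE 0.0404, 1.96-fold, adjusted p = 3.00e-08, limma). Kif1b, a carrier of mitochondria and synaptic vesicle precursors, was higher by 0.31 (SE 0.0426, 1.24-fold). Kif1c, a widely expressed motor of Golgi and other vesicles, was lower: 7.16, 7.27 and 7.06 in neurons against 7.74, 7.72 and 7.73 in precursors (-0.56, SE 0.0546, 1.48-fold). The endosome motors Kif16b (-0.37, SE 0.0558) and Kif13a (-0.26, SE 0.0563) were lower too. Kif13b differed by -0.05 (95% interval -0.16 to 0.07, adjusted p = 0.427) and its groups overlapped.

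Conventional kinesin-1 heavy chains also split. Kif5a, the neuron-specific heavy chain, was at 9.90, 10.06 and 9.90 in neurons, 8.98, 9.06 and 9.14 in precursors, and 9.30, 9.31 and 9.24 in the co-culture (neurons minus precursors 0.89, SE 0.0592, 1.86-fold, adjusted p = 7.03e-07, limma). Kif5c, which is enriched in neurons, was at 11.26, 11.26 and 11.20 in neurons and 10.91, 10.91 and 10.90 in precursors, a smaller difference of 0.33 (SE 0.0392, 1.26-fold). Kif5b, made in nearly all cells, was lower in neurons, at 10.12, 10.16 and 10.05 against 10.43, 10.47 and 10.40 (-0.32, SE 0.044, 1.25-fold). Its second probe set, which was dimmer, differed in the same direction (6.45 in neurons and 6.62 in precursors).

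Kinesin-2 motors pair Kif3a with Kif3b or Kif3c and serve both cilia and axons. Kif3b was higher in neurons by 0.79 (9.18, 9.24 and 9.10 against 8.30, 8.40 and 8.47; SE 0.0549, 1.73-fold), Kif3a by 0.44 (SE 0.0443, 1.35-fold) and Kif3c by 0.37 (SE 0.0428, 1.29-fold). In all 3 genes the neuron arrays lay above every precursor array. Kif17, a dendritic motor of NMDA receptor vesicles, differed by 0.25 (adjusted p = 0.0244), and its neuron arrays spread widely, at 7.59, 7.40 and 7.76 against 7.35, 7.39 and 7.26 in precursors. Its adjusted p rose above 0.05 when neuron array 1 (0.0586) or 3 (0.0752) or precursor array 3 (0.0853) was left out. Of the kinesin-4 motors that restrain microtubule growth, Kif21a was higher by 0.27 (SE 0.0469), while Kif21b differed by -0.13 (adjusted p = 0.0963) and passed with the replicate number as a block (adjusted p = 0.0221).

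The light chains and adaptors that link kinesins to cargo were read from a list of 24 symbols, of which 20 had a probe set and were tested. In neurons 14 were higher and 1, the mitochondrial adaptor Rhot2 (-0.31), was lower, with a median difference of 0.31, beside 28.0% of all tested genes higher and 35.2% lower. The vesicle adaptor Apba1 led with 1.40 (SE 0.0686, 2.64-fold), followed by Kifap3, the subunit that completes the kinesin-2 motor, at 1.04 (SE 0.0516, 2.06-fold). Clstn1, a membrane protein that docks kinesin-1, was higher by 0.84 and Madd, a linker of Kif1 motors, by 0.57. Dynein and dynactin, which run the other way along microtubules, were mixed: of 19 tested members 7 were higher and 2 lower (median 0.04), so 9 of 19 passed where 63.1% of all tested genes did (28.0% higher and 35.2% lower). The dynein intermediate chain Dync1i1 was 4.66-fold higher in neurons (2.22, SE 0.0805), and Nde1, a dynein regulator needed by dividing precursors, was 3.58-fold lower (-1.84, SE 0.0865). Dctn6 (0.32) and Dctn1 (0.29), both dynactin subunits, were higher.

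Of the 11 other kinesins 6 were tested. In neurons 2 of these 6 were higher and 2 lower, beside 28.0% and 35.2% of all tested genes. Kif26b, an atypical family member that acts in signalling and cell adhesion, was at 8.93, 8.88 and 8.87 in neurons, 7.60, 7.73 and 7.64 in precursors, and 7.988, 7.997 and 7.926 in the co-culture. It was higher in neurons by 1.24 (SE 0.0476, 2.35-fold, adjusted p = 1.90e-08, limma), and the cultures did not overlap. Its paralogue Kif26a went the other way, with 8.28, 8.23 and 8.24 in neurons and 8.71, 8.51 and 8.63 in precursors (-0.37, SE 0.0547, 1.29-fold). Kif2a, a microtubule depolymerase that limits axon branches and also works in spindles, was higher by 0.51 (10.44, 10.39 and 10.38 against 9.79, 9.95 and 9.93; SE 0.0581, 1.43-fold). Kif24, which restrains cilium growth at centrioles, was lower by 0.50 (log2 difference -0.50, SE 0.0507, 1.41-fold).

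Kif7, the Hedgehog pathway motor of the primary cilium, differed by -0.11 (95% interval -0.33 to 0.10) and Kif6, a motor of motile cilia, by 0.13 (95% interval -0.05 to 0.31), and neither passed (adjusted p = 0.346 and 0.198, limma). A dimmer second probe set of Kif7 differed by 0.05, in the other direction. Kif9, Kif12, Kif19a, Kif27 and Kif2b failed the filter, with means between 5.46 and 6.72 in every culture. Kif27 read 6.06 in each neuron array, and its dimmer second probe set differed by 0.30 between neurons and precursors.

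**Figure D4:**
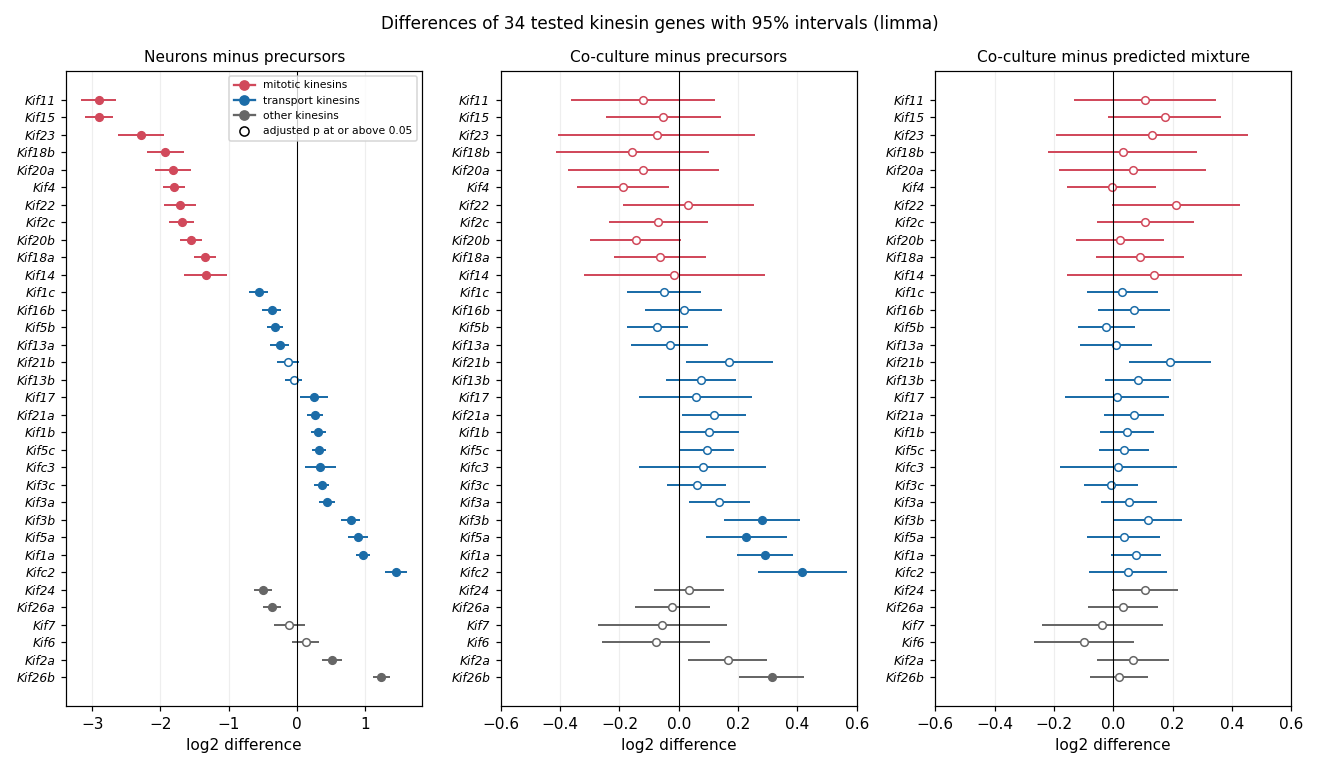
Log2 differences of the 34 tested kinesin genes with 95% intervals from limma: neurons minus precursors, co-culture minus precursors, and co-culture minus the level predicted for a mixture of both. Filled points passed an adjusted p of 0.05 and open points did not, and the first panel has a wider axis. Mitotic kinesins (red) lie between -2.90 and -1.33 in the first panel. In the second 5 genes pass and in the third 0, beside 8.42% and 0.392% of all tested genes.

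The co-culture was then compared with precursors alone, to see which kinesin levels differ where neurons are present. Its own neurons are part of the RNA: 5 of 8 neuronal markers were higher than in precursors (summed level 19710 to 19780 against 16510 to 16900). Co-culture array 2 stood apart in the mesenchymal markers (804.4 against 544 and 496.8 in the other co-culture arrays) and in the endothelial markers (738.9 against 617.2 and 599.8). Of the 34 tested kinesin genes 5 were higher and 0 lower (limma), and of all tested genes 8.42% passed, 8.22% higher and 0.200% lower. At an unadjusted p under 0.05, 11 kinesin genes were higher and 1 lower, where 18.0% of all genes passed. The arrays of the 2 cultures did not overlap in 15 of the 34 kinesin genes and in 24.8% of all tested genes. The 5 were Kifc2 (0.42, SE 0.065, 1.33-fold, adjusted p = 0.00313), Kif26b (0.31, SE 0.0476, adjusted p = 0.00266), Kif1a (0.29, SE 0.0404, adjusted p = 0.00155), Kif3b (0.28, SE 0.0549, adjusted p = 0.0109) and Kif5a (0.23, SE 0.0592, adjusted p = 0.0445), by limma. All 5 were also higher in neurons than in precursors, a comparison that shares the precursor arrays. Kif1a and Kif3b had identical deposited values in all 3 co-culture arrays (11.14 and 8.67), as did 1.06% of all probe sets, so that the spread of these arrays is not shown by their values. Without co-culture array 2 all but Kif5a again passed.

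Precursor and co-culture arrays of the same number departed together from their group means. With that number as a block 5 kinesin genes again passed, but Kif21b (0.17, adjusted p = 0.0465) took the place of Kif5a (adjusted p = 0.0576). The call of Kif5a was also lost on leaving out neuron array 1 (adjusted p = 0.0542) or 3 (0.0528), precursor array 1 (0.141) or 2 (0.120) or any 1 co-culture array (0.0794 to 0.162). The same held without the filter (0.0978) and with arrays centred on the median of all probe sets (0.063) or of tested genes (0.097).

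Between co-culture and precursors 0 mitotic kinesins passed. The 11 tested differences ran from -0.19 to 0.03 and 10 were below 0, beside 5359 of all 13012 tested genes. Signs of such small differences depend on the scaling. With arrays centred on the median of tested genes, the median over all genes moved from 0.02 to -0.04. Only Kif4 had an unadjusted p under 0.05 (limma, -0.19, 95% interval -0.34 to -0.04, adjusted p = 0.153). For Kif11 the interval was -0.36 to 0.12, for Kif15 -0.24 to 0.14 and for Kif23 -0.40 to 0.25. Of the 16 partners 1 passed, the passenger complex subunit Cdca8, which was lower (-0.26, adjusted p = 0.0326, named after its value was seen). Among light chains and adaptors 6 of 20 were higher, where 8.22% of all tested genes were, led by Apba1 (0.44), Kifap3 (0.29) and Clstn1 (0.23), and of dynein and dynactin genes only Dync1i1 (0.83). Like Kif1a and Kif3b, Apba1 had identical deposited values in all 3 co-culture arrays (8.88), so their spread is not shown.

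Against neurons alone, 18 kinesin genes were higher in the co-culture and 12 lower, beside 35.7% and 24.9% of all tested genes (60.6% in all). The arrays of the 2 cultures did not overlap in 31 of 34 kinesin genes and in 65.4% of all tested genes. With arrays centred on the median of the tested genes 17 were higher and 14 lower, while over all genes the share of calls that were higher moved from 58.9% to 41.4% (and from 97.6% to 87.6% against precursors, where 4 kinesin genes were higher and 0 lower). The 11 tested mitotic kinesins were higher by 1.28 to 2.84, with Kif15 7.18-fold and Kif11 6.89-fold. Of the transport kinesins 10 were lower, led by Kifc2 (-1.04, 2.05-fold), Kif1a (-0.68), Kif5a (-0.67) and Kif3b (-0.51), and 5 were higher: Kif1c (0.51), Kif16b (0.38), Kif21b (0.30), Kif5b (0.25) and Kif13a (0.23). Kif13a did not pass when arrays were centred on the median of tested genes (0.11, adjusted p = 0.0869). Kif21a (-0.15) was lost without neuron replicate 1 (0.0514) or co-culture replicate 1 (0.0552) or 3 (0.072). Kifc3 (-0.26) was lost without neuron replicate 1 (0.0943) or 3 (0.0967), without any 1 co-culture array (0.0517 to 0.0893), and without the filter (0.0566).

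Finally the co-culture levels were set against a plain mixture of the separate cultures. The share of co-culture RNA that came from neurons, estimated from genes at least 4-fold apart between neurons and precursors with all kinesin genes left out, was 16.7% ± 1.17 (SD, n = 3). The 105 genes high in neurons gave 22.6% ± 1.18 and the 106 genes high in precursors 10.8% ± 2.40, so the estimate depends on which genes are used. Other cell cycle genes were not left out, and Mki67 (-2.96), Top2a (-3.08) and Bub1 (-2.95) were among those high in precursors. The prediction is thus not independent of genes that moved with the mitotic kinesins. At 16.7%, no kinesin gene passed against the predicted mixture (limma, smallest adjusted p = 0.373, for Kif21b), against 0.392% of all tested genes. At an unadjusted p under 0.05, Kif21b and Kif3b did, beside 8.23% of all. The error of the share is not part of this test.

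Measured and predicted levels can be given as a percentage of the precursor level on the linear scale. Kif11 was at 92.0% in the co-culture against 85.5% predicted, Kif15 at 96.5% against 85.6%, and Kif4 at 87.8% against 88.1%. Kif1a was at 122% against 116%, Kifc2 at 133% against 129% and Kif26b at 124% against 123%. Kif22 lay farthest above the prediction of all tested kinesins, at 102% against 88.4% (0.21, 95% interval -0.002 to 0.422, adjusted p = 0.613, limma), and Kif4 lay close to it. Kif21b, the farthest among transport kinesins, was at 9.88, 10.03 and 9.99 in neurons, 10.02, 10.18 and 10.11 in precursors, and 10.18, 10.35 and 10.28 in the co-culture. Its co-culture arrays lay above all neuron and precursor arrays, but barely: the lowest was 10.181 and the highest precursor array 10.179. The departure was 0.19 (95% interval 0.06 to 0.32, adjusted p = 0.373, limma). Of the 34 genes 29 lay above the prediction, as did 9269 of the 13012 genes tested (71.2%), where the median departure was 0.03. This direction depended on the scaling: with arrays centred on the median of tested genes 13 of the 34 kinesins and 27.8% of all genes lay above, with medians of -0.02 and -0.04. Without the filter 30 of 40 kinesins and 53.8% of all 22180 genes did.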

How the data were processed

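The authors deposited log2 levels per probe set, which the submitters' processing notes credit to RMA and oligo. Versions, genome build and probe annotation are not given in the sources used here. RMA corrects background, equalises array distributions and summarises probes on all arrays together. No read depth exists for arrays, so their number limits the precision. Probe sets with 1 gene symbol in the platform table (23521 of 41345) were used, and all 40 kinesin gene numbers matched RefSeq (GRCm38.p6) with the same symbols. One limma model (3.58.1, R 4.3.3) was fitted to 3 groups over 13012 genes, with two-sided tests and Benjamini-Hochberg adjustment. The labels call arrays biological replicates without naming embryos or litters, so p-values measure only the spread between these arrays. The script was tested on simulated data. Members, groups, partner lists, motifs and alternatives were chosen with earlier results of these data known. Every kinesin may be named, and up to 4 members of each partner list by size of difference. Same-numbered arrays deviated together for precursors and co-culture (correlations across genes 0.34, 0.30 and 0.16). The values were -0.005, 0.27 and 0.17 for neurons and co-culture, and 0.004, 0.13 and -0.15 for neurons and precursors. Arrays of different numbers were not compared, so whether the numbers mark a pairing was not tested.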

Additional observations from a re-analysis of the deposited data

How the results depend on the processing

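Each kinesin value was recomputed with another filter, scaling, weighting, probe set rule or replicate block and without each array in turn. Between neurons and precursors 29 of the 30 calls held in every setting in which the gene was tested (Kif17 did not), between co-culture and precursors 4 of 5, and between co-culture and neurons 27 of 30. No called value changed sign. No kinesin passed against the predicted mixture in any setting, including shares taken only from genes high in neurons or in precursors. With the filter at the 75th percentile fewer genes were tested, and the lower calls in neurons against precursors were 2 for transport and 1 for other kinesins. There the higher calls in the co-culture against neurons were 3 and 1. With the replicate block 31 kinesins passed between neurons and precursors, 5 between co-culture and precursors and 30 between co-culture and neurons. The block changed the calls of Kif21b and Kif5a only. Without 1 array the counts were 29 to 30, 4 to 5 and 28 to 33. Centring on the median of tested genes was chosen after seeing the data. Dim levels limit the folds of 5 mitotic kinesins, whose neuron means were below the mean array median of 6.77.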
